A study of Homo sapiens with 2 samples.

Results

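HNRNPC peaks at the ends of long genes are described here: 2239 of the 23148 peaks called in an RNA immunoprecipitation sequencing (RIP-seq) library of A549, a cell line established from a human lung carcinoma of the non-small cell kind. A peak was taken when its summit, the position of highest enrichment, lay on chromosomes 1 to 22 or X inside exactly 1 RefSeq protein-coding gene span of 20 kb or longer and within 2000 bp of either end of that span. The series has 2 samples of A549 cells, 1 library of RNA precipitated with 5 µg of an antibody against HNRNPC (HNRNPC IP) and 1 input library taken without antibody. The peak list belongs to the HNRNPC IP library, and the input sample's own file was not analysed here. Each group has 1 library and so no replicates, which leaves no test between samples and no p-value. Intervals are 95% and cover counting error only, and they treat peaks of the same gene as independent, which they are not.

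The strand of the gene, taken from RefSeq start sites, divided the end peaks into 1619 at 5' ends and 255 at 3' ends. Another 365 lay in genes whose strand was not listed, 107 of them on chromosome 8. The other 18455 peaks of long protein-coding genes are called interior peaks below. End peaks made up 10.8% (exact binomial interval 10.4 to 11.3%) of the 20694 peaks in such genes. Of the end peaks with a listed strand, 86.4% (84.8 to 87.9%) lay at 5' ends and 13.6% (12.1 to 15.2%) at 3' ends. The 3' share depended strongly on the distance allowed: it was 0.802% within 1000 bp of an end and 38.6% within 5000 bp.

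HNRNPC is a nuclear protein of the hnRNP family that packages nascent transcripts and is known for binding runs of U. It is also known as a reader of N6-methyladenosine (m6A), in which the mark loosens RNA structure and exposes a U run nearby. The 5' end of a gene span holds the capped first exon and often the start of the first intron, whereas the 3' end holds the 3' untranslated region and the site of cleavage and polyadenylation. Exons and introns were not resolved here, and a RIP-seq peak marks a stretch where fragments of the precipitated RNA pile up, not the bound base. The series concerns HNRNPC as an m6A reader and the mRNA of E2F2, a transcription factor that drives genes of DNA replication.

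Sequences from the first 50 bases of 6 genes are shown because the commonest position of a 5' summit was near base 50 of the gene. The 30 bases of each run from base 21 to base 50 after the listed start, lie under an end peak and are written 5' to 3' on the strand of the gene, all in lower case because no letters are singled out. They come from RefSeq, build GRCh38.p14. CACUL1, MDM2 and CLTC are among the 5' ends of highest fold, and CLTC and TOP2A had their summits at 66 and 60 bp. The peaks over the CACUL1 and MDM2 stretches had their summits further inside, at 256 and 282 bp, so these 2 stretches lie away from the summit. TBC1D20 and DYNC1LI2, with summits at 55 and 56 bp, were chosen after their values were seen.
CACUL1, chr10:118754921-118754950, minus strand: gccgtcagccgcgtcttcaagctagtcggc
MDM2, chr12:68808192-68808221, plus strand: caccgcggcgagcttggctgcttctggggc
CLTC, chr17:59619915-59619944, plus strand: ctgcgcccggttccgccattgcggctctcc
TOP2A, chr17:40417847-40417876, minus strand: gaagcggcttggtcgggggtggtctcgtgg
TBC1D20, chr20:462484-462513, minus strand: ggggagcctgccgatgccgagcgggtgcta
DYNC1LI2, chr16:66751560-66751589, minus strand: ggcgccggtgggggtggagaagaagctgct

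None of these 6 stretches held a run of 5 T, the letters that stand for U in RNA. The same was true of most starts with a peak nearby. Of 568 listed starts with a 5' end peak within 100 bp, 8 (1.41%, 0.610 to 2.76%) held TTTTT in the sense strand of their first 50 bases, and 2.99% held it on either strand. Starts of genes with peaks but no 5' end peak held it in the sense strand in 11 of 921 cases (1.19%) and on either strand in 2.17%. Starts whose 5' end peak lay 100 to 2000 bp inside held it in 2.23% of 674 cases in the sense strand and 3.56% on either strand, and all 34961 listed starts in 3.72% of cases in the sense strand and 6.44% on either strand. GGACT, 1 form of the sequence in which m6A is made, was present in the sense strand of 3.17% of starts with a near peak (1.89 to 4.96%). It was present in 4.78% of starts of genes with no 5' end peak (3.49 to 6.36%), and these intervals overlapped. Starts with a peak 100 to 2000 bp inside held it in 4.90% of cases and all starts in 4.89%. On either strand GGACT was present in 7.57% of starts with a near peak and 9.99% of those without a 5' end peak. Starts with a peak 100 to 2000 bp inside held it on either strand in 8.31% of cases and all starts in 9.61%. Each motif was searched without regard to overlap with another. Median GC content of the 50 bases was 66% at starts with a near peak, 68% at those without and 60% over all starts. These are counts of letters in a window of 50 bases and say nothing of bases further into the RNA.

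At 5' ends the commonest position of a summit was a short distance inside the gene, though most summits lay further in. Of 1619 summits, 585 (36.1%, 33.8 to 38.5%) lay less than 100 bp from the end of the span, and 359 (22.2%) lay between 40 and 69 bp. In steps of 10 bp the first 100 bp held 5, 11, 45, 77, 107, 164, 88, 35, 32 and 21 summits, so the count was highest from 50 to 59 bp and few summits lay in the first 20 bp. Those under 100 bp had a median distance of 53 bp (quartiles 41 and 62), and the near edge of their peaks lay at a median of 19 bp from the end (5 and 31). A second, lower and wider rise followed: steps of 100 bp held 585, 138, 217, 123 and 67 summits. In all, 1130 summits (69.8%) lay within the first 500 bp, and the median over all 5' end peaks was 246 bp (quartiles 59 and 665.5). Peaks rarely ran past the start, as 172 (10.6%) reached outside the span, by a median of 14.5 bp.

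At 3' ends the summits kept away from the end itself. None of the 255 lay within 200 bp of the 3' end, 11 (4.31%, 2.17 to 7.59%) lay in the last 1000 bp, and 188 (73.7%) lay 1500 bp or more from it, near the limit of the rule. Their median distance was 1689 bp (quartiles 1491 and 1838.5). Only 2 (0.784%) reached outside the span. Among peaks whose strand was not listed, the nearest end was at a median of 275 bp and within 100 bp in 121 of 365 (33.2%), a share close to that of the 5' ends.

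**Figure D1:**
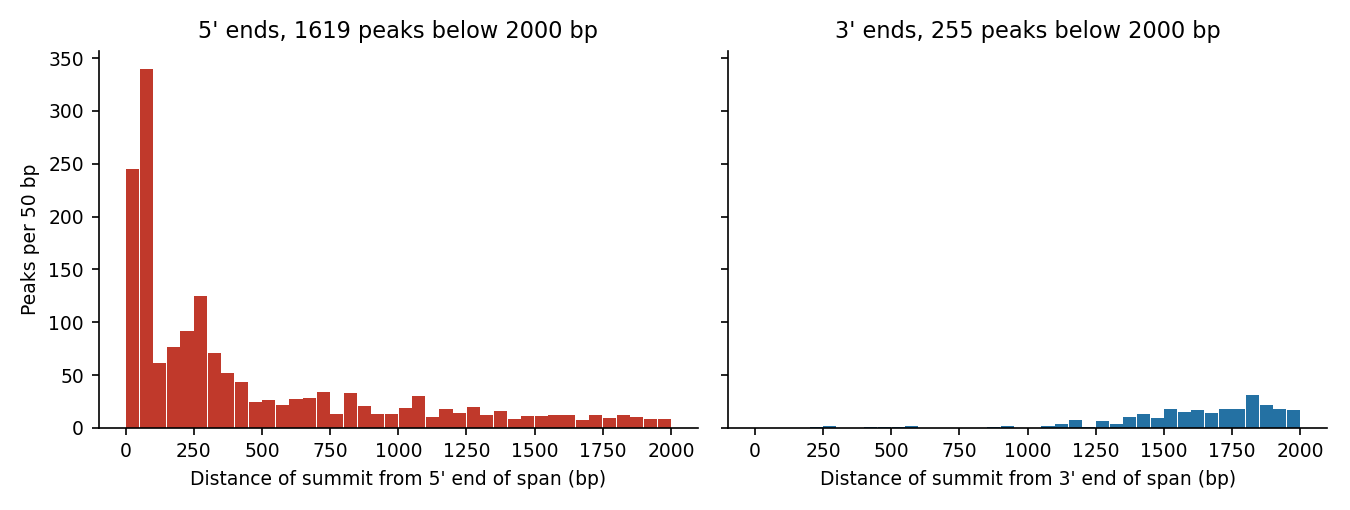
Number of peak summits in steps of 50 bp by distance from the 5' end (left, 1619 peaks) and the 3' end (right, 255 peaks) of the gene span. The 5' summits are densest in the first 100 bp (585) with a second rise from 200 to 300 bp (217). The 3' summits lie mostly at 1500 bp or more (188).

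The limit of 2000 bp cut through the 3' side of the genes. In the 2558 genes with a listed strand and a peak, successive kilobases from the 5' end held 1360, 259, 199, 158 and 128 summits. From the 3' end they held 11, 244, 450, 349 and 267, so that the third kilobase held the most. Density over the first 2000 bp was 316.3 summits per Mb (exact Poisson interval 301.1 to 332.1), 6.49 times the 48.8 per Mb (47.9 to 49.6) found over 10 kb from both ends. Over the last 2000 bp it was 49.8 per Mb (43.9 to 56.3), 1.02 times that level. These summits lay unevenly within it, as the last 1000 bp had 4.30 per Mb (2.15 to 7.69) and the 1000 bp before it 95.4 (83.8 to 108.1). The third kilobase from the 3' end reached 175.9 per Mb. In the first 100 bp from the 5' end it was 2287 per Mb (2105 to 2480), 46.9 times the level over 10 kb from both ends. In the last 200 bp no summit was found over 0.512 Mb, where 3 counts would have given 5.86 per Mb. Position chose these peaks, so the densities describe where the rule's peaks lie and support nothing further, and how much RNA each stretch gave was not measured.

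**Figure D2:**
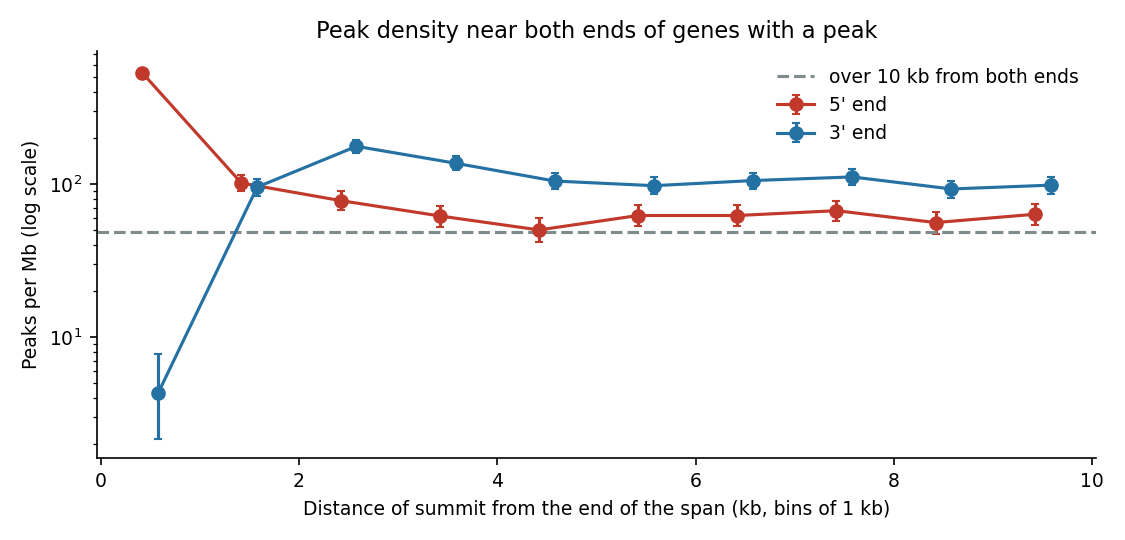
Summits per Mb (log scale) in bins of 1 kb from the 5' end (red) and 3' end (blue) of 2558 genes with a peak and a listed strand; bars are 95% exact Poisson intervals and the dashed line marks the density over 10 kb from both ends (48.8). The first kilobase at 5' ends stood at 532 per Mb and the last at 3' ends at 4.30.

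The 3 peaks just inside the limit and the 3 just outside it lay in AGFG1, YAP1, NCOA3, EFR3A and RRP1B. The peaks just inside were in AGFG1, 1997 bp from the 5' end with a fold of 4.67, in YAP1, 1997 bp from the 3' end with a fold of 3.73, and in NCOA3, 1995 bp from the 3' end with a fold of 6.42. Just outside were another AGFG1 peak, on its 3' side with a fold of 3.998, and peaks near an end of EFR3A (4.62) and RRP1B (4.97), whose strands were not listed. Folds on the 2 sides of the limit overlapped.

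The summits near 50 bp were also found at starts inside genes, which the rule for end peaks did not use. RefSeq lists 1046 further starts more than 2000 bp inside the spans of genes with a peak. Within 100 bp after such a start lay 103 summits (985 per Mb, 804 to 1194), of which 61 were at 40 to 69 bp. The 100 bp before them held 6 summits (57.4 per Mb, 21.1 to 124.9), and from 500 bp to below 1000 bp after them the density was 84.1 per Mb (61.1 to 112.9). At the 2163 listed starts that coincide with the end of a span, the first 100 bp held 568 summits (2626 per Mb, 2414 to 2851), 348 of them at 40 to 69 bp. Both kinds of start thus had their highest count in the same window, with intervals for the first 100 bp that did not overlap. Each summit was counted once, at its nearest start, while every start added its full window to the density. Inner starts of a gene can lie close together, so the densities of the 2 kinds of start are not strictly alike. The 103 interior summits had a median fold of 6.12 and a median width of 112 bp, against 6.62 and 105.5 bp for the 568. The highest folds were those of ZNF217, a zinc finger gene, at 14.5, of MBNL1, a splicing regulator, at 13.5, and of DCUN1D1, CELF1 and CBX5 at 12.6 each.

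**Figure D3:**
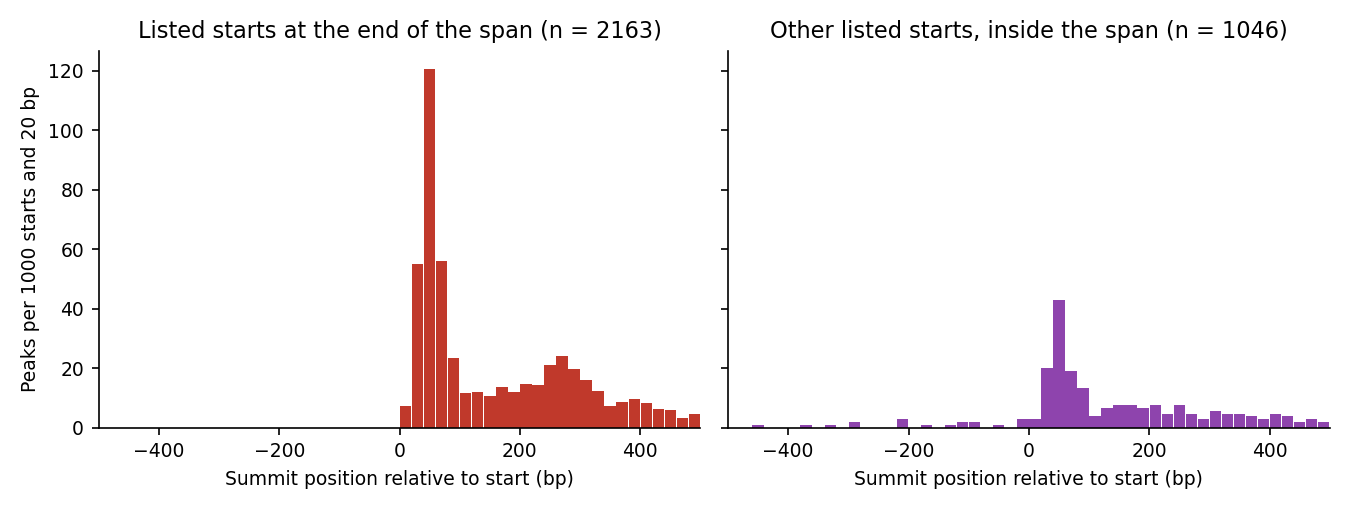
Summits per 1000 starts in steps of 20 bp, by position relative to RefSeq starts at the end of a span (left, 2163 starts) and to other starts more than 2000 bp inside a span (right, 1046 starts). Both panels are highest at 40 to 60 bp after the start; positions before the start are outside the span and not drawn on the left.

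Fold and coverage differed between the ends. Fold enrichment is the authors' value for each peak over the caller's control, and it was used only within this list. Median fold was 6.24 at 5' ends (quartiles 5.05 and 7.75), 4.81 at 3' ends (3.99 and 5.79) and 5.76 in interior peaks (4.79 and 7.22). The intervals of these medians were 6.24 to 6.25 at 5' ends and 4.64 to 5.05 at 3' ends. In the interior the interval was a single value of 5.76. None overlapped, but many peaks share the same fold, and such ties narrow the intervals. At the lowest control level, with reads inferred as described below, 5.76 stands for 10 IP reads and 6.24 for 11. The quartile ranges of the classes overlapped. A fold of 10 or more was reached by 213 of the 2239 end peaks (9.51%, 8.33 to 10.8%), against a background of 8.98% of all peaks in long protein-coding genes and 8.64% of all peaks in the list. These were 184 of 1619 at 5' ends (11.4%, 9.86 to 13.0%), 0 of 255 at 3' ends (upper bound 1.44%), and 29 of 365 with no listed strand (7.95%). Interior peaks reached it in 1646 of 18455 cases (8.92%). The share over all end peaks was therefore near the background, while the 5' and 3' shares lay on either side of it. The low 3' share was not particular to the last 2000 bp. Interior peaks 2000 to 3000 bp from the 3' end reached a fold of 10 in 2 of 450 cases (0.444%). Those 2000 to 3000 bp from the 5' end reached that fold in 15 of 199 (7.54%).

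The lower fold at 3' ends went with more reads and a higher control level. The number of IP reads over a summit and the control level there, in reads at the control's depth, were worked out from each peak's fold and p. Peaks had a median of 15 IP reads at 5' ends (quartiles 11 and 21), 23 at 3' ends (18 and 32) and 14 in the interior (10 and 21). A control level of 1 or more stood under 26.6% of 5' end peaks (24.5 to 28.8%), 77.3% of 3' end peaks (71.6 to 82.3%) and 29.5% of interior peaks (28.8 to 30.1%). A control level of 5 or more stood under 19 peaks at 5' ends (1.17%), 35 at 3' ends (13.7%) and 1.99% of interior peaks. By median, 3' end peaks thus had the most IP reads, the highest control level and the lowest fold of the 3 classes. Reads and control level were solved from fold and p and are not measurements independent of fold. Further inside the gene, summits in the third kilobase from the 3' end had a median fold of 5.16, 21 IP reads and a control level of 1 or more in 69.3% of cases. Those in the third kilobase from the 5' end had 5.48, 11 reads and 11.1%.

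**Figure D4:**
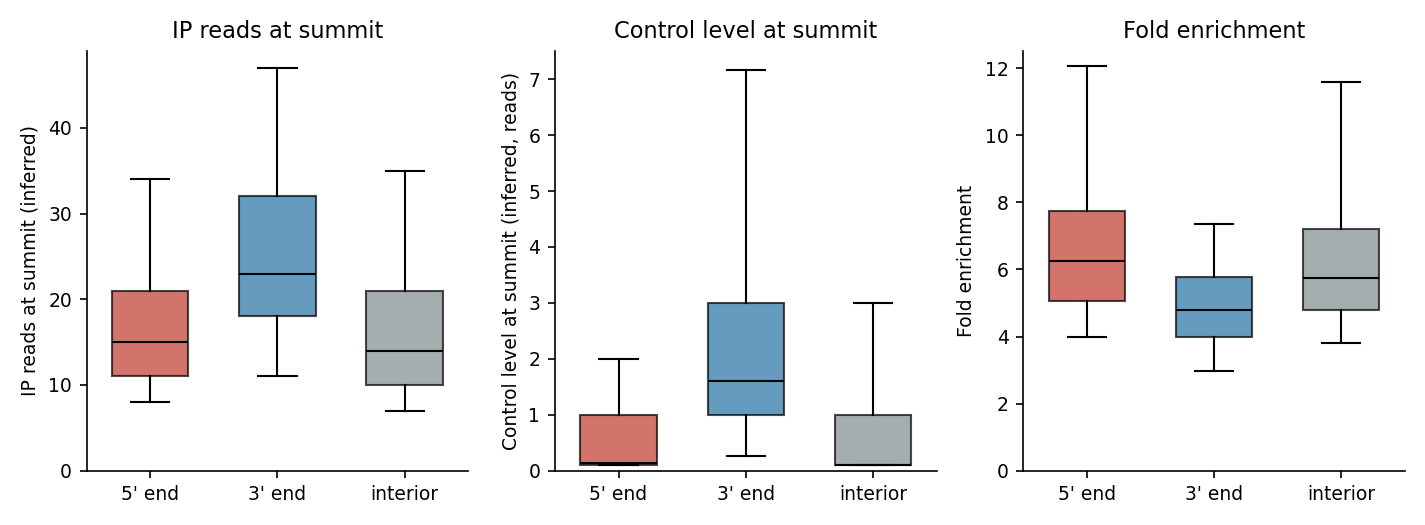
Inferred IP reads at the summit, inferred control level (reads at the control's depth) and fold enrichment for peaks at 5' ends (1619), at 3' ends (255) and in the interior (18455); boxes show quartiles and medians, whiskers the 5th and 95th percentiles. The 3' end peaks have the highest median reads (23) and control level (1.60) and the lowest median fold (4.81).

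Fold and width also varied along the 5' end. Summits in the first 100 bp had a median fold of 6.66 and a median width of 104 bp, whereas those 200 to 399 bp inside had 6.42 and 242 bp. The peaks at 200 to 399 bp, which form the second rise, held the highest share of folds of 10 or more, 16.8%, and those 1000 bp or more inside the lowest, 5.79%. Over all end peaks the median width was 153 bp, with 149 bp at 5' ends and 188 bp at 3' ends, against 120 bp in the interior. Peaks of 1000 bp or wider made up 1.54% at 5' ends, 9.80% at 3' ends and 2.18% in the interior. The greater width was not particular to the last 2000 bp. Interior peaks 2000 to 3000 bp from the 3' end had a median width of 205.5 bp, with 8.44% at 1000 bp or wider. Those 2000 to 3000 bp from the 5' end had 138 bp and 2.01%. ITGB1, the integrin beta 1 subunit, had the widest end peak, 7941 bp with its summit 1452 bp from the 5' end and a fold of 14.5. NHLRC2 followed with 7608 bp, AFF1, a subunit of the super elongation complex, with 4157 bp at its 3' end, ZNF121 with 3669 bp at its 3' end and PCMTD2 with 3463 bp at its 5' end.

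Against the interior median of the same gene, fold was more often higher at 5' ends and more often lower at 3' ends. The sets of genes differed between the ends, and these counts do not compare the 5' end of a gene with its 3' end. The best 5' end peak of a gene had a higher fold than the median of the gene's interior peaks in 801 of 1191 genes (67.3%, 64.5 to 69.9%) and a higher fold than the best interior peak in 345 (29.0%). For 3' ends these counts were 43 of 217 genes (19.8%, 14.7 to 25.7%) and 11 (5.07%). Taken peak by peak, IP reads were above the interior median of the gene for 662 of 1430 peaks at 5' ends (46.3%) and for 189 of 241 at 3' ends (78.4%, 72.7 to 83.4%). Ties counted as not above. The median ratio of a peak's reads to that interior median was 1 at 5' ends and 1.2 at 3' ends. A best peak is the highest of several where a gene has several, so the peak-by-peak shares of higher fold are given as well, 62.7% at 5' ends and 19.1% at 3' ends.

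End peaks were spread over many genes. Of 10991 protein-coding genes of 20 kb or longer, 1696 had an end peak, which was 15.4% of these genes and 55.7% of the 3047 with any peak. Among the 2558 with a peak and a listed strand, 1184 (46.3%) had 5' end peaks only, 63 (2.46%) had 3' end peaks only, 166 (6.49%) had both and 1145 (44.8%) had neither. Most genes with an end peak, 1250, had 1, and 208 had end peaks and no other peak. A 5' end peak was found in 62.2% of genes of 20 to 50 kb with a peak, 54.3% at 50 to 100 kb, 49.3% at 100 to 200 kb and 34.1% above 200 kb. A 3' end peak was found in 13.3%, 8.85%, 5.76% and 5.11% of the same classes. By chromosome, end peaks made up between 6.51% (chromosome 21) and 18% (chromosome 19) of the peaks in long genes. Another gene lay within 2000 bp outside the span at 666 of the 5' end peaks (41.1%) and 60 of the 3' end peaks (23.5%); the peaks carry no strand, so RNA of such neighbours cannot be told apart from that of the gene.

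The highest folds at 5' ends lay in the genes named next, and each is given with the distance of its summit from the 5' end. XPO1, which exports proteins and RNA from the nucleus, had a fold of 24.3 at 873 bp from its 5' end, with 50 IP reads at the summit. CACUL1, a cullin-domain protein that binds CDK2, had 23.2 at 256 bp (46 reads), and CCDC6, a frequent fusion partner of RET in thyroid cancer, had 21.6 at 327 bp (46 reads). UHMK1, a kinase with a U2AF homology motif, had 21.3 at 970 bp, and NUFIP2, a partner of FMRP, had 20.6 at 272 bp. MDM2, the ubiquitin ligase of p53, had 2 end peaks, of fold 19.8 at 282 bp (39 reads) and 15.5 at 1076 bp (30 reads). CLTC, the clathrin heavy chain, had 17.3 at 66 bp, and PDZD8 had 16.7 at 1049 bp. PKN2, a protein kinase, had 16.0 at 260 bp. H2BC18 had 16.2 at 217 bp; as a histone gene with near-identical copies its value is uncertain. TOP2A, whose peak at 60 bp equalled that of PKN2, is described further on. Of the 10 best peaks just named only that of CLTC lay in the first 100 bp, and 6 lay between 200 and 400 bp. The control level at each of these summits was 0.470 or lower, so the folds rest on IP reads over a control of less than 1 read.

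At 3' ends the highest folds were lower than at 5' ends, and none reached 10. ANGEL2, an RNA phosphatase, had 9.63 at 1933 bp from its 3' end, and NOL9, a kinase of ribosomal RNA processing, had 9.58 at 1766 bp in a peak of 1825 bp. EVI5, a regulator of Rab GTPases, had 9.32 at 1650 bp, and ZNF121, a zinc finger gene, had 9.07 at 1732 bp. TCP11L2 had 8.92 at 568 bp, the only 1 of the 10 in the last 1000 bp. SLC39A10, a zinc importer, followed with 8.70, GABPA, an ETS transcription factor, with 8.61, PRKCI, an atypical protein kinase C, with 8.20, NF2, the tumour suppressor merlin, with 7.95, and OSBPL8 with 7.60. Of these 10 peaks, 6 had a control level of 0.827 or more and 4 had one between 0.371 and 0.611.

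The 11 peaks in the last 1000 bp of a gene belonged to 10 genes. TCP11L1 had 2 of them, at 222 and 497 bp from the 3' end with folds of 4.97 and 4.51. The other genes were TBX20 at 257 bp (4.79), FSD2 at 269 bp (7.195), GXYLT2 at 443 bp (4.30), INCENP at 540 bp (4.53), TCP11L2 at 568 bp (8.92), CRLF3 at 576 bp (4.02), ZNF724 at 896 bp (4.90), NOL9 at 907 bp (3.49) and EREG at 909 bp (3.48). The peaks of INCENP, a subunit of the chromosomal passenger complex, and of TCP11L2 were the 2 that reached beyond the end of the span.

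Among genes with peaks at both ends, the 5 with the highest fold at their weaker end all had the higher fold at the 5' end. This order was not counted over all 166 genes with both. OSBPL8 (7.22 at the 5' end and 7.60 at the 3' end) and ANGEL2 (5.85 and 9.63) were among those with the reverse order. NOL9 had 12.6 at its 5' end and 9.58 at its 3' end. ZNF121 had 11.1 at its 5' end and 9.07 at its 3' end, and PRKCI had 9.64 at its 5' end and 8.20 at its 3' end. NF2 had 14.5 at its 5' end, with 34 IP reads over a control level of 0.329, and 7.95 at its 3' end, with 36 reads over 1.55. SPAST, the microtubule-severing enzyme spastin, had 8.67 at its 5' end and 7.46 at its 3' end. In NF2 the inferred reads at the ends were nearly equal and the inferred control levels differed, both being solved from fold and p.

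Several genes held runs of end peaks. SKIL, a corepressor of SMAD proteins, had 4 at its 5' end, with folds of 12.5, 6.65, 4.71 and 5.79 at 44, 510, 737 and 1077 bp, and 1 of 7.39 at its 3' end. ANGEL2 had 2 at the 5' end, of 4.90 and 5.85, and 3 at the 3' end, of 9.63, 6.66 and 5.75. KYNU, kynureninase, had 5 at its 5' end between 94 and 1885 bp with folds from 4.69 to 6.24, and 7 peaks in all over 178170 bp. EREG, the EGF receptor ligand epiregulin, had 4 at the 5' end with a highest fold of 7.997 at 48 bp, and SIRT1, a deacetylase, had 4 with a highest fold of 6.70 at 52 bp. Each of these last 2 genes had 1 end peak at the 3' end, with folds of 3.48 in EREG and 5.85 in SIRT1. TOP2A, the topoisomerase of dividing cells, had 4 at its 5' end, of 16.0, 7.73, 10.7 and 6.66 at 60, 1112, 1403 and 1868 bp. PARD6B, SRPK1, TCP11L1 and INTS2 had 4 each. In SRPK1, a kinase of SR splicing factors, the peak at 52 bp had a fold of 4.62 and that at 615 bp 12.6.

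**Figure D5:**
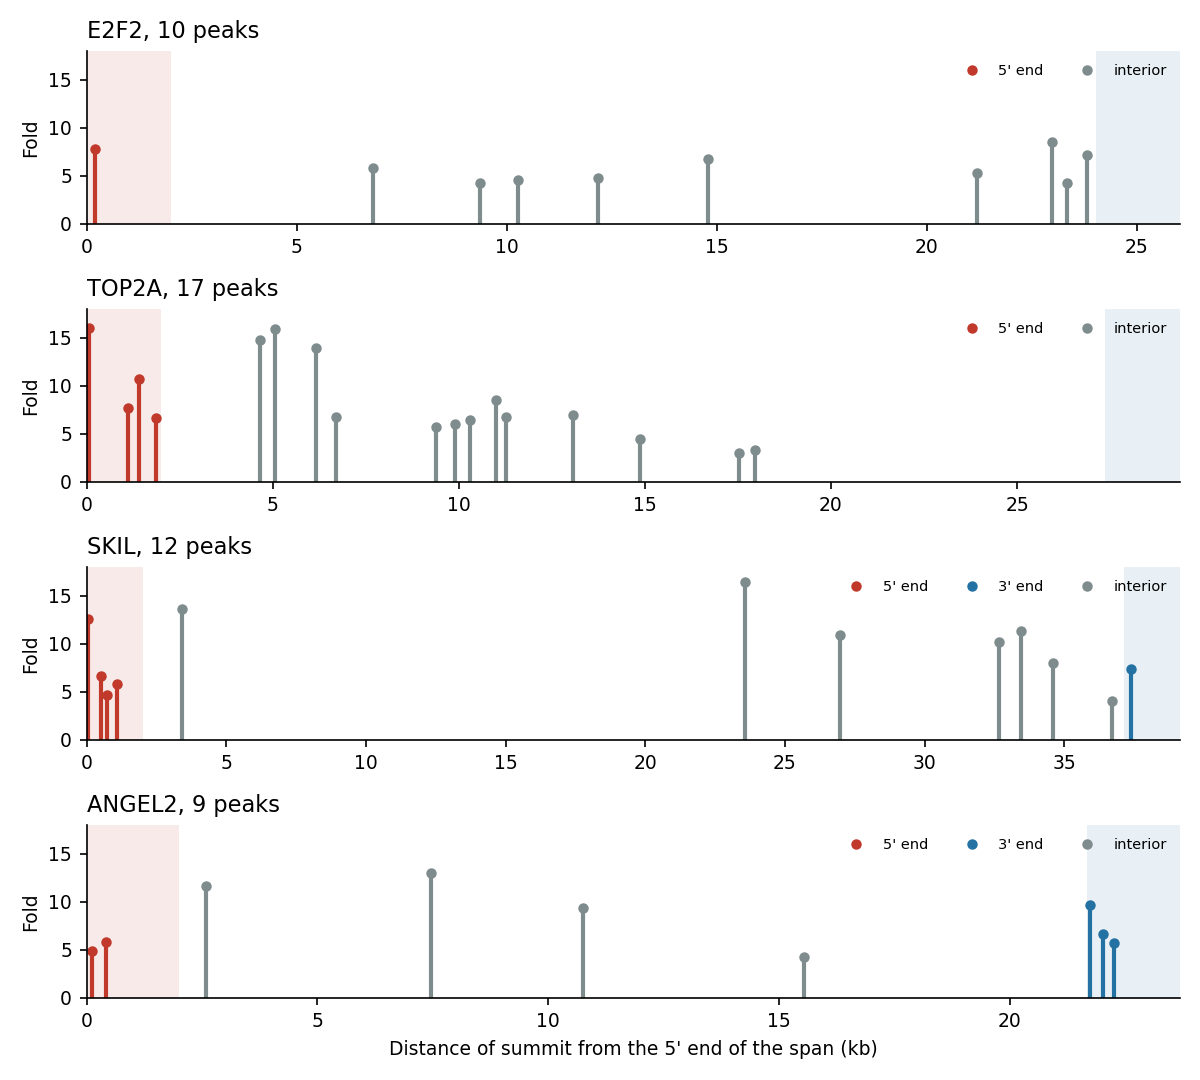
Fold of every peak of E2F2, TOP2A, SKIL and ANGEL2 by the distance of its summit from the 5' end of the gene span (kb); red marks 5' end peaks, blue 3' end peaks and grey interior peaks, and the shaded bands are the 2 kb at each end. The 3' band is empty in E2F2 and TOP2A and holds 1 peak in SKIL and 3 in ANGEL2.

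E2F2, the gene the series is about, had 1 end peak among 10 peaks. The gene spans chr1:23505212-23531233 on the minus strand. Its end peak, chr1:23530594-23531292, was 699 bp wide, had its summit 189 bp from the 5' end, a fold of 7.75 that ranked second in the gene, 16 IP reads and a control level of 0.235. It is 1 of the 172 end peaks that run past the start of the span, and the 59 bases before the listed start that it covers are shown here, on the strand of the gene with runs of 5 or more A in capitals.
E2F2, bases -59 to -1, chr1:23531234-23531292, minus strand: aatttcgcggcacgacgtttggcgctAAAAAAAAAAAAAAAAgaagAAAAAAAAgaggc
The runs are of A on the strand of the gene and of T on the opposite strand. E2F2 had no peak in its last 2000 bp. Its 3 peaks nearest the 3' end lay just beyond, at 2211 bp with a fold of 7.12 and 38 reads, at 2675 bp with 4.26 and 22 reads, and at 3047 bp with 8.53 and 30 reads. The last of these was the gene's highest.

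HNRNPC itself, chr14:21209147-21269442 on the minus strand, had 1 end peak among 18. It was narrow (73 bp, chr14:21267816-21267888), lay 1574 bp from the 5' end and had a fold of 5.34 with 12 IP reads, eighth in the gene by fold.

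Gene groups chosen for the cell line and for the protein are given by counts beside 55.7%, the share of all long genes with a peak that had an end peak. Among the E2F and pocket proteins, which govern entry into S phase, 6 of 8 long genes with a peak had an end peak, all 6 at the 5' end and 2 at the 3' end as well. RBL2 had the highest fold of these, 10.6 at 279 bp, RB1 had 7.22 at 99 bp from the 5' end and 5.59 at 1837 bp from the 3' end, and E2F7 had 6.73 at 41 bp and 5.22 at 1408 bp from the 3' end. RBL1 had 6.73 at 49 bp and TFDP2 6.51 at 75 bp. Of the cell cycle and replication genes 9 of 12 had an end peak, among them GINS1, a subunit of the replicative helicase, with 13.3 at 66 bp and 3.35 at its 3' end, and MCM10 with 10.6 at 58 bp. The best 5' end peaks of TOP2A, GINS1 and MCM10 had their summits at 58 to 66 bp. These 3 were picked by fold, and 22.2% of all 5' end summits lay between 40 and 69 bp. The median best fold of the list was 6.97 for the E2F and pocket proteins and 7.45 for the cell cycle genes, against 6.46 over all genes with an end peak.

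Of the m6A readers 9 of 10 long genes with a peak had an end peak, and of the m6A writers and erasers 3 of 5. Among the readers YTHDF3, whose strand was not listed, had folds of 6.96 and 6.91, IGF2BP3 had 6.73 and 6.66 at its 5' end and FMR1 had 5.59 at its 5' end and 6.41 at its 3' end. HNRNPC is itself a member of this list. The demethylase gene FTO had 10.1 at 246 bp, the methyltransferase gene METTL16 had 6.70 at 112 bp and the demethylase gene ALKBH5 had 4.70 at 231 bp, with 42 IP reads at the summit. Of the hnRNP genes 5 of 9 had an end peak, led by PCBP2 at 9.30, PTBP2 at 9.16 and HNRNPF at 5.85. The median best fold of the readers was 6.12 and that of the hnRNP genes 5.85, both below the 6.46 of all genes with an end peak.

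Among factors that act at the ends of transcription, 7 of 11 pausing and elongation genes and 5 of 8 cleavage and polyadenylation genes had an end peak. CDC73, a subunit of the PAF1 complex, had a fold of 12.1, CDK12, a kinase of RNA polymerase II, had 10.3 at 312 bp, and CCNT1, the cyclin of P-TEFb, had 9.64 at 24 bp and 4.31 at its 3' end. NUDT21, a cleavage factor that acts in the choice of polyadenylation site, had 7.60 at 1611 bp from its 3' end. PAPOLG, a poly(A) polymerase, had 6.24 at 55 bp, and PAPOLA, another, had 3.41 at its 5' end and 4.39 at its 3' end. The median best fold was 7.70 for the elongation list and 4.39 for the cleavage list.

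Lung cancer drivers had an end peak in 8 of 11 cases and genes that NRF2 switches on under oxidative stress in 7 of 10. MET, a receptor tyrosine kinase, had 13.5 at 222 bp, and NF1, a tumour suppressor, had 11.6 at 217 bp. ABCC2, a drug exporter, had 13.5 at 186 bp, ABCC1, another, had 9.41, and SLC7A11, the cystine transporter, had 6.68 and 2.90. Of the 6 long lung epithelium markers 2 had a peak, and these had no end peak. No peak was present in the 5 long blood and immune markers or the 8 long neuron, muscle and liver markers. Of all 10991 long genes 3047 (27.7%) had a peak. All shares of the lists rest on few genes, and the level of each RNA was not measured here.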

How the data were processed

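RNA bound to HNRNPC was profiled by RIP-seq in 1 IP library, with 1 input library that was not analysed here. Per the submitters' processing notes, HISAT2, MACS2, bedtools and build hg38 were used; versions, settings and the control given to the caller are not given in the sources used here. The deposited list holds a peak in each row. Its columns are the authors' caller output: region, score, summit, the −log10 of p and of q, and fold enrichment, which is a ratio over the control. The list gives no read totals, so depth is unknown; for arithmetic only, fold and p were solved for IP reads and control level at each summit. All 23148 rows were matched within 0.001 in −log10 p, at an IP to control depth ratio of 1.87 and a lowest control level of 0.103, and 5 end peaks had a second solution. At control levels of 1 or more, 5914 of 7083 values were whole within 0.01. Only the arithmetic was checked on simulated data, not whether the caller used this formula.

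Gene spans were read from RefSeq (GRCh38 patch 14), and strand from RefSeq start sites, which matched 8923 of 10991 long protein-coding genes. Coordinates are 1-based. Shares have exact Clopper-Pearson intervals, densities exact Poisson intervals, and medians intervals from order statistics. Named genes are E2F2, HNRNPC, those of the 10 highest folds at each end, the 10 genes with most end peaks, 5 with high folds at both ends, up to 3 of each list, the 5 widest peaks and the 3 peaks on each side of the limit; genes named beside these were chosen after their values were seen. Not every gene this rule picks is reported here. Members and lists were chosen with earlier results of these data known. Alternatives changed the distance, span minimum, q, fold, overlap rule and neighbouring genes. Software was matplotlib 3.10.9, scipy 1.17.1, pandas 2.3.3 and numpy 2.4.6 under Python 3.11.15.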

Additional observations from a re-analysis of the deposited data

How the results depend on the processing

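Of 79 alternative values, 48 stayed within the interval of the main value (counts within 1.5 times) and 31 moved; none reversed the order of the ends. With a limit of 5000 bp there were 4042 end peaks, 19.5% of the peaks in long genes, 38.6% of them at 3' ends, with median folds of 6.12 at 5' ends and 5.20 at 3' ends, 6.70% at a fold of 10 or more and a median width of 160 bp. With 1000 bp the share was 7.997%, 0.802% lay at 3' ends, median folds were 6.36 at 5' ends and 4.53 at 3' ends, and 11.9% had a fold of 10 or more. A span of 50 kb or longer left 1377 end peaks, 8.36% of peaks, in 1084 genes. Leaving out ends with another gene within 2000 bp left 1377 end peaks, 6.94% of peaks, in 1078 genes, 17.0% at 3' ends. Counting any base of a peak gave 11.6% of peaks, 17.5% at 3' ends, a 3' median fold of 5.05 and a width of 161 bp. With q of 0.001 or less, 11.3% lay at 3' ends, median folds were 6.73 at 5' ends and 5.34 at 3' ends, 11.6% had a fold of 10 or more and the width was 161 bp. With a fold of 4 or more, 11.0% lay at 3' ends and median folds were 6.26 at 5' ends and 5.29 at 3' ends. The main interval of the 5' median fold was narrowed by tied values, so even 6.26 counted as moved. The share of 5' summits under 100 bp, whose alternatives were chosen after seeing the data, moved under none of those tried. Those tried left out other distance limits, the rule of any base and summits shared by several spans. The share depends on the limit by its make-up, being 585 of 1619 summits within 2000 bp and 585 of 1360 within 1000 bp. The cause of these shifts was not tested, beyond the fewer or further peaks each rule admits. No paired analysis was possible because each group has 1 library. Depth per library is unknown, and the number of reads behind a summit limits each fold.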
